A study of Arabidopsis thaliana with 4 samples.

Results

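PHR1 and its relatives PHL1, PHL2 and PHL3 are transcription factors of the MYB-CC class that switch on phosphate starvation genes in Arabidopsis thaliana. They were taken by locus identifier from the deposited gene table, where all 4 (PHR1, AT4G28610; PHL1, AT5G29000; PHL2, AT3G24120; PHL3, AT4G13640) were found among 33557 genes. The symbol PHR1 is also borne by a photolyase gene, which was not used. The study sequenced RNA from plants of accession Col-0 kept for 7 days on vertical agar plates lacking phosphate. Of the 4 genotypes, each with 1 library, Col-0 was the wild type, hho2-1 and phr1 each carried a SALK T-DNA insertion, and hho2phr1 carried both mutations. All libraries thus share the Col-0 background and the phosphate-free medium, and no library from plants with phosphate was analysed here. The harvested part of the plant is not given in the labels, and each mutant allele comes from 1 insertion line. HHO2 encodes a GARP-class regulator, a relative of HRS1, that acts on phosphate and nitrate responses.

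Proteins of the MYB-CC class bind DNA through a single MYB-type domain and pair through a coiled coil. PHR1 and PHL1 bind a short palindromic element, P1BS, in the promoters of genes that respond to phosphate shortage, and PHL2 and PHL3 act on many of the same genes. When phosphate is ample, SPX proteins hold inositol pyrophosphates and keep PHR1 away from DNA, so that PHR1 is known to be controlled mainly at the level of the protein rather than of its mRNA.

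The relation among the 4 genes is visible in 1 coding exon of 77 bases that all of them have, and it is shown because it sets how far reads of one could be taken for another. In background knowledge this exon codes for the end of the MYB domain. It is the exon numbered 4 of 8 in PHR1 and PHL1 and the exon numbered 2 of 6 in PHL2 and PHL3. In TAIR10.1 coordinates, all on the minus strand, it spans chr4:14133954-14134030 in PHR1, chr5:11023212-11023288 in PHL1, chr3:8707455-8707531 in PHL2 and chr4:7937963-7938039 in PHL3. Below, written 5′ to 3′ from the RefSeq genome, capitals mark the 36 positions where all 4 genes carry the same base.
PHR1: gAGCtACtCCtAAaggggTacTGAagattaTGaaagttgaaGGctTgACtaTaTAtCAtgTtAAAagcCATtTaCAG
PHL1: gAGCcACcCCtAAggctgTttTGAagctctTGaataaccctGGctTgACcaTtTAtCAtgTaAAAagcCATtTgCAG
PHL2: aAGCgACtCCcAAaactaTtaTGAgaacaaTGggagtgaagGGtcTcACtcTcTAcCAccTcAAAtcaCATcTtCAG
PHL3: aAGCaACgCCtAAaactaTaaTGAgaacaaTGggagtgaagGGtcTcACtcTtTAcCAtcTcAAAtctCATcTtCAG

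The 4 sequences fell into a pair of pairs. PHR1 and PHL1 were identical at 56 of 77 positions (72.7%), and PHL2 and PHL3 at 70 (90.9%). Between the pairs, identity lay between 39 and 47 positions. The longest exact run shared by the exons of any pair was 32 bases, in PHL2 and PHL3, and the longest run that PHR1 shared with a PHL gene was 14 bases, with PHL1. Of all windows of 50 bases within the exons of PHR1, PHL2 and PHL3, 0 occurred elsewhere in the nuclear genome, whereas 63 of 2265 did for PHL1. The read length is not given in the sources used here, so a window of 50 bases stands in for a read. None of the 4 gene intervals overlapped another gene of the deposited table.

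The values are FPKM, fragments per kilobase of transcript scaled for library size, which the authors deposited with a 95% interval for each gene and library. How the libraries were scaled is not given. Each genotype had 1 library, so the interval cannot be read as the variation between plants of a genotype. What variation it does hold was not examined. No p-value is given for any difference below, and with 1 library none has a replicate check. Between 20045 and 20091 genes reached 1 FPKM in a library. From the steps between low values, the libraries held roughly 35200000 to 42100000 fragments, if each was scaled to its own mapped fragments. That estimate rested on 33 to 43 low genes in a library. Under the same assumption PHR1 rested on about 410 fragments in hho2phr1, its lowest library, and about 3000 in hho2-1. The authors' intervals of the members reached 21.5% to 28.0% of the value to each side.

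PHR1 (chr4:14132856-14135259, TAIR10) separated the libraries by its own allele. It stood at 37.7 FPKM in Col-0 (authors' 95% interval 29.6 to 45.9) and 43.2 in hho2-1 (33.9 to 52.5). It stood at 7.54 FPKM in phr1 (5.49 to 9.60) and 6.50 in hho2phr1 (4.68 to 8.32). The libraries with intact PHR1 were both high, those with the phr1 allele were both low, and no interval of one pair touched one of the other. In Col-0 PHR1 was above 76.6% of the genes that reached 1 FPKM, and in hho2phr1 above 26.8%. The gene total does not show which part of the transcript was left in the mutant, and in bulk RNA fewer cells with a transcript and less transcript per cell cannot be told apart.

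PHL1 (chr5:11022083-11024960), the closest relative of PHR1 and partly redundant with it, stood at 11.99 FPKM in Col-0, 13.1 in hho2-1, 13.5 in phr1 and 13.2 in hho2phr1. PHL2 (chr3:8705636-8708315), which acts beside PHR1 in the starvation response, stood at 30.5, 27.9, 29.6 and 30.4 FPKM in the same order of libraries. PHL3 (chr4:7936592-7938645), also named UNE16 in the annotation and the nearest relative of PHL2, stood at 23.3, 21.4, 20.6 and 24.0 FPKM. For each of these 3 genes all 4 intervals overlapped, and no library stood out as high or low.

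**Figure D1:**
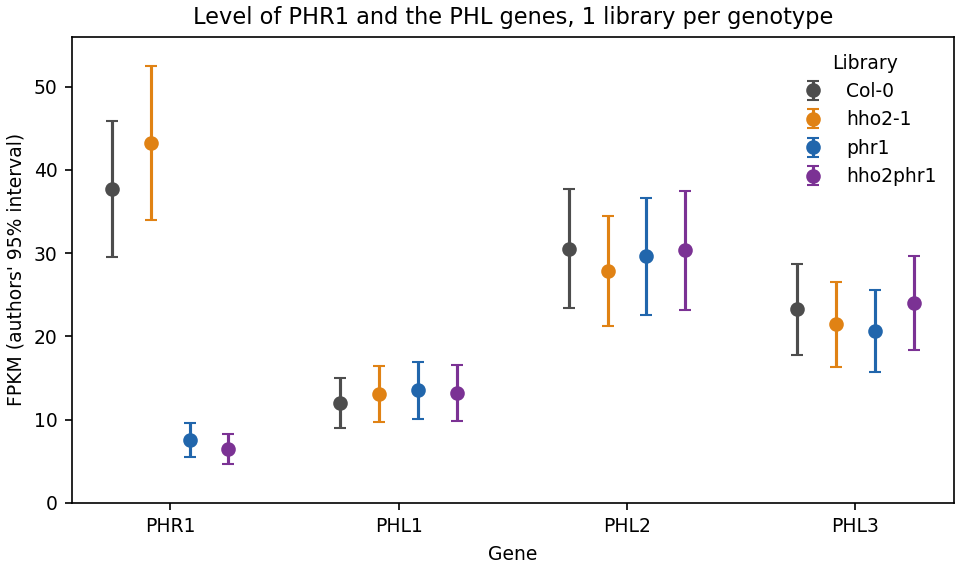
FPKM of PHR1, PHL1, PHL2 and PHL3 (vertical axis, from 0) in the 4 libraries, with points for the deposited value and bars for the authors' 95% interval. PHR1 is at 6.50 to 7.54 in the libraries with the phr1 allele and at 37.7 to 43.2 in the others, whereas the PHL genes stay within their intervals.

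The spread over libraries put numbers on this contrast. The highest PHR1 value was 6.65 times its lowest, a ratio above those of 99.9% of the 19518 genes with at least 1 FPKM in every library. The ratio was 1.13 for PHL1, 1.10 for PHL2 and 1.16 for PHL3, each under the median ratio of 1.23 over those genes. Of those genes, 10.7% had a smaller ratio than PHL2.

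The order of the 4 genes therefore differed between the libraries. FPKM is scaled to transcript length, so levels of different genes can be set side by side. In Col-0 PHR1 was highest, followed by PHL2, PHL3 and PHL1. The intervals of neighbours overlapped except between PHL3 and PHL1, where PHL3 was 1.94 times as high. In hho2-1 the order was the same and all neighbours overlapped. In phr1 and hho2phr1 PHL2 led, followed by PHL3 and PHL1, and PHR1 came last. There the gap between PHL1 and PHR1 was 1.79-fold in phr1 and 2.03-fold in hho2phr1, in both with intervals apart. In hho2phr1 the intervals of PHL3 and PHL1 were apart as well.

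The summed level of the 4 genes was 103.5 FPKM in Col-0, 105.6 in hho2-1, 71.3 in phr1 and 74.1 in hho2phr1. PHR1 made up 36.4% and 40.9% of that sum in Col-0 and hho2-1, and 10.6% and 8.77% in phr1 and hho2phr1. The PHL genes alone summed to 65.8, 62.4, 63.8 and 67.6 FPKM in the order Col-0, hho2-1, phr1 and hho2phr1. The highest and lowest of these sums were in hho2phr1 and hho2-1.

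The effect of the phr1 allele was measured in both HHO2 backgrounds, as the difference of log2(FPKM + 1) between 2 libraries. The added 1 shrinks differences of genes with low values. A difference of at least 1 in size was counted as 2-fold, among genes with at least 1 FPKM in either library. In phr1 against Col-0, PHR1 differed by -2.18, a level 0.200 times that of Col-0, with 0.120 to 0.325 spanned by the ends of the intervals. In hho2phr1 against hho2-1 it differed by -2.56, a level 0.150 times that of hho2-1 (0.0892 to 0.245). Among all genes tested, 0.576% were 2-fold lower in the first comparison and 0.719% in the second, and PHR1 ranked 35 from the lowest among 20323 and 18 among 20456. In the second comparison 259 genes were 2-fold higher and 147 lower, a split that became 207 and 212 after rescaling the libraries to equal sums, which shifted the median of all genes by -0.11. After rescaling to a median log2 ratio of 0 the split was 252 and 153. In hho2phr1 against Col-0, which holds both alleles, PHR1 differed by -2.37, and 0.647% of genes were 2-fold lower.

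None of the 3 PHL genes was 2-fold different with the phr1 allele, and all their intervals overlapped. Of all genes tested, 1.35% were 2-fold different in either direction in phr1 against Col-0, 1.98% in hho2phr1 against hho2-1 and 1.91% in hho2phr1 against Col-0. PHL1 differed by 0.16 in phr1 against Col-0 and by 0.01 in hho2phr1 against hho2-1. PHL2 differed by -0.04 and 0.12, and PHL3 by -0.16 and 0.16, in the same comparisons. The ends of the intervals leave room for ratios of 0.669 to 1.90 for PHL1, 0.600 to 1.56 for PHL2 and 0.549 to 1.43 for PHL3 in phr1 against Col-0. Ratios of 2 and of 0.5 lie outside those ranges, and smaller differences in either direction lie within them.

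With the hho2 allele none of the 4 genes was 2-fold different in either background, as was the case for most genes. Of all genes tested, 0.88% were 2-fold different in hho2-1 against Col-0 and 1.11% in hho2phr1 against phr1. PHR1 was at 1.15 times its Col-0 level in hho2-1 (log2 0.19) and at 0.862 times its phr1 level in hho2phr1 (log2 -0.19). PHL3, at 1.16 times its phr1 level in hho2phr1 (log2 0.21), was the largest of the PHL differences. All these intervals overlapped.

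**Figure D2:**
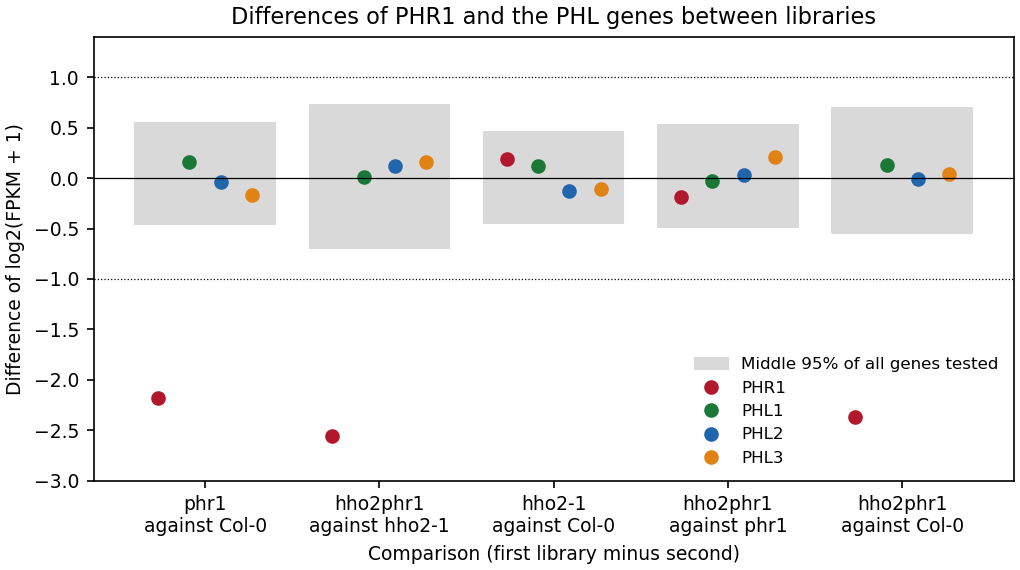
Differences of log2(FPKM + 1) (vertical axis) of the 4 genes in 5 comparisons, first library minus second. Grey boxes span the middle 95% of all genes tested and dotted lines mark 2-fold. PHR1 lies at -2.18, -2.56 and -2.37 where the phr1 allele differs between the libraries, and all other points lie inside the grey boxes.

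Whether the 2 alleles' differences add up was read from the phr1 difference in the hho2-1 background minus that in the HHO2 background, with no test. It was -0.38 for PHR1, -0.15 for PHL1, 0.16 for PHL2 and 0.32 for PHL3. Among 20129 genes, 81.4% had a smaller value in size than PHR1 and 75.3% a smaller one than PHL3, so neither stood outside the bulk of genes.

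Other MYB-CC genes give the family context. A list of 10 relatives was read beside the 4 members, among them APL, which sets phloem identity, and the flowering regulators MYR1 and MYR2. All 10 passed the minimum of 1 FPKM. PHR1 was the highest of the 14 genes in Col-0 and hho2-1 and ranked 10 in phr1 and hho2phr1. The highest relative was AT2G01060, at 36.3 FPKM in Col-0, 35.3 in hho2-1, 34.2 in phr1 and 33.1 in hho2phr1. It varied as little as PHL2, with a ratio of highest to lowest of 1.10.

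None of the 10 relatives was 2-fold different in any comparison, and for each of them all 4 intervals overlapped, as for 94.6% of all genes. In phr1 against Col-0 the list was balanced, with 5 genes above 0 and 5 below and a median of -0.03. In hho2phr1 against hho2-1, 9 of 10 were below 0, beside 49.3% of all genes, with a median of -0.40 beside 0.01 over all genes. After rescaling to equal sums, 10 of 10 were below 0, beside 66.2% of all genes. MYR2 was lowest there, at 5.55 FPKM against 8.96 (log2 -0.61), followed by MYR1 at 11.5 against 17.4 (log2 -0.56). In hho2-1 against Col-0, 9 of 10 were above 0 and 1 below, beside 49.7% of all genes below 0. The median was 0.17 beside 0.001 over all genes, and MYR1 led at 17.4 FPKM against 13.2 (log2 0.37). Both comparisons use the hho2-1 library. Without it, 9 of 10 were below 0 in hho2phr1 against phr1, beside 51.6% of all genes, with a median of -0.14. In hho2phr1 against Col-0, 7 of 10 were below 0, beside 51.3% of all genes, with a median of -0.22. The median over all genes was -0.01 in each, and these comparisons share the hho2phr1 library. In all, 6 of 10 relatives were highest in hho2-1 and lowest in hho2phr1, as were 16.5% of the 19518 genes above 1 FPKM in every library.

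**Figure D3:**
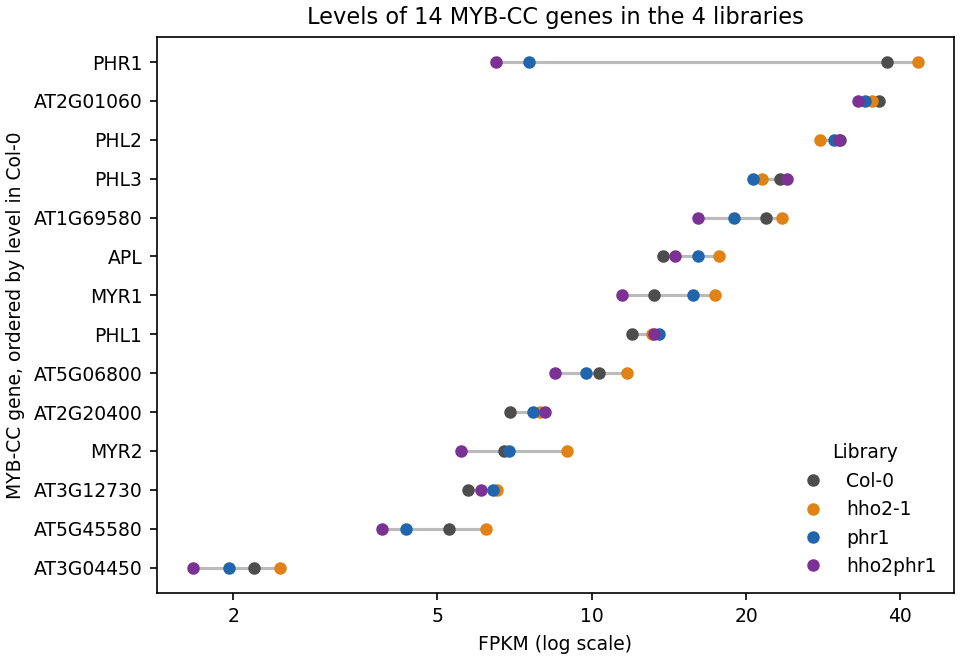
FPKM (horizontal axis, log scale) of 14 MYB-CC genes in the 4 libraries, ordered by level in Col-0. PHR1 spans 6.50 to 43.2, and several relatives, such as MYR1 and MYR2, are highest in hho2-1 and lowest in hho2phr1.

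Regulators of PHR1 were read next, from a list of 8 genes. With the phr1 allele in the HHO2 background, 2 of 8 (SPX1 and SPX3) were 2-fold lower, both with intervals apart, beside 0.217% of all genes, and the list median was -0.13. In the hho2-1 background the same 2 genes were 2-fold lower with intervals apart, beside 0.347% of all genes, and the median was -0.36. There VIH1, a kinase gene of inositol pyrophosphate synthesis, also had intervals apart, at 2.34 FPKM in hho2phr1 against 4.12 in hho2-1 (log2 -0.62). SPX1, which encodes an inhibitor that binds PHR1 and is itself a PHR1 target, had the highest level of the list: 444 FPKM in Col-0, 456 in hho2-1, 180 in phr1 and 179 in hho2phr1. SPX3, a related SPX gene, differed most with the phr1 allele, at 101.5 FPKM in Col-0, 87.0 in hho2-1, 25.5 in phr1 and 27.1 in hho2phr1. For both genes the pair of libraries with the phr1 allele lay apart from the other pair, as for PHR1 itself. SPX4, another SPX gene, showed the largest difference with the hho2 allele (log2 0.25 in hho2-1 against Col-0), at 15.2 FPKM in Col-0, 18.3 in hho2-1, 15.9 in phr1 and 16.6 in hho2phr1. The SUMO ligase gene SIZ1, whose product modifies PHR1, lay between 39.8 and 43.1 FPKM in the 4 libraries. Of the 8 listed regulators, 5 were below 0 in phr1 against Col-0, beside 50.5% of all genes.

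The list of HRS1 and HHO genes had 7 members, and whether each acts on starvation genes was not tested. Of these, 0 were 2-fold different in any comparison, beside 0.88% to 1.98% of all genes. Smaller differences with intervals apart were seen for HHO3, with 110.8 FPKM in Col-0 and 186 in the hho2-1 library (log2 0.74). HHO1 also had intervals apart, at 14.8 FPKM in hho2phr1 against 25.7 in hho2-1 (log2 -0.76). In the other background the intervals overlapped for both, with 0.47 for HHO3 in hho2phr1 against phr1 and -0.25 for HHO1 in phr1 against Col-0. HHO2, the other mutated gene, had 90.7 FPKM in Col-0, 59.8 in hho2-1, 81.2 in phr1 and 51.8 in hho2phr1. With its own allele HHO2 differed by -0.59 in hho2-1 against Col-0, with overlapping intervals, and by -0.64 in hho2phr1 against phr1, with intervals apart. In hho2phr1 against Col-0, which holds both alleles, HHO2 differed by -0.80, with intervals apart. With the phr1 allele alone HHO2 differed by -0.16 and -0.20 on the log2 scale in the HHO2 and hho2-1 backgrounds.

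Genes known to lie downstream of PHR1 show what accompanied its low level. Of a list of 27, 26 passed the minimum, and NPC5 did not. SPX1 and SPX3, already counted among the regulators, are also on this list and among its 2-fold lower genes below. With the phr1 allele in the HHO2 background, 10 were 2-fold lower, all with intervals apart, and 0 were 2-fold higher. Of all genes tested there, 0.217% were 2-fold lower with intervals apart and 0.773% were 2-fold higher. The list median was -0.71, and 24 of 26 were below 0. In hho2phr1 against hho2-1, 8 were 2-fold lower, again all with intervals apart, beside 0.347% of all genes, 0 were 2-fold higher, beside 1.27%, and the median was -0.70. With the hho2 allele 0 of 26 were 2-fold different in either background, and the medians were -0.09 and 0.01. Of all genes tested, 0.88% and 1.11% were, so a count of 0 is not particular to the list. In hho2phr1 against phr1, 3 of 26 had intervals apart with smaller differences, IPS1 and PHT1;2 lower and RNS1 higher (log2 0.87). The list holds genes long studied as PHR1 targets and was chosen with earlier results of these data known, so its direction is a description.

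Across the 4 lists beside the members, 7 genes were 2-fold lower with intervals apart in both backgrounds, among 21 such genes of 20129 in the whole table, where PHR1 itself ranked 3 by its mean difference. PAP14, a purple acid phosphatase gene, was at 11.3 FPKM in Col-0, 9.16 in hho2-1, 0.746 in phr1 and 1.39 in hho2phr1. NPC4, a phospholipase gene of membrane lipid turnover, was at 31.7, 35.0, 9.59 and 11.8 FPKM in the same order. Both were low in each library with the phr1 allele.

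IPS1, a noncoding RNA that sequesters a starvation microRNA, was at 544 FPKM in Col-0, 384 in hho2-1, 242 in phr1 and 145 in hho2phr1. The phosphate transporter genes PHT1;2 and PHT1;9 completed the set with SPX1 and SPX3. PHT1;2 was at 11.2, 10.99, 4.90 and 2.44 FPKM and PHT1;9 at 4.31, 3.15, 1.42 and 0.840 FPKM, in the order Col-0, hho2-1, phr1 and hho2phr1. PHT1;2 has near-identical neighbours in its family, so its value depends on how the authors' tool divided reads. IPS1, PHT1;2 and PHT1;9 were lowest in hho2phr1, with log2 differences from phr1 of -0.73, -0.78 and -0.39, the intervals of PHT1;9 overlapping.

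Not all genes of the list were low. AT4, a noncoding relative of IPS1, was at 1959 FPKM in Col-0, 1514 in hho2-1, 2120 in phr1 and 1560 in hho2phr1. PHT1;4, a main phosphate uptake gene, had 145 FPKM in Col-0 against 149 in phr1, a log2 difference of 0.04. RNS1, a ribonuclease gene, had 27.2 FPKM in Col-0 against 25.1 in phr1, but 46.6 in hho2phr1 against 33.8 in hho2-1.

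**Figure D4:**
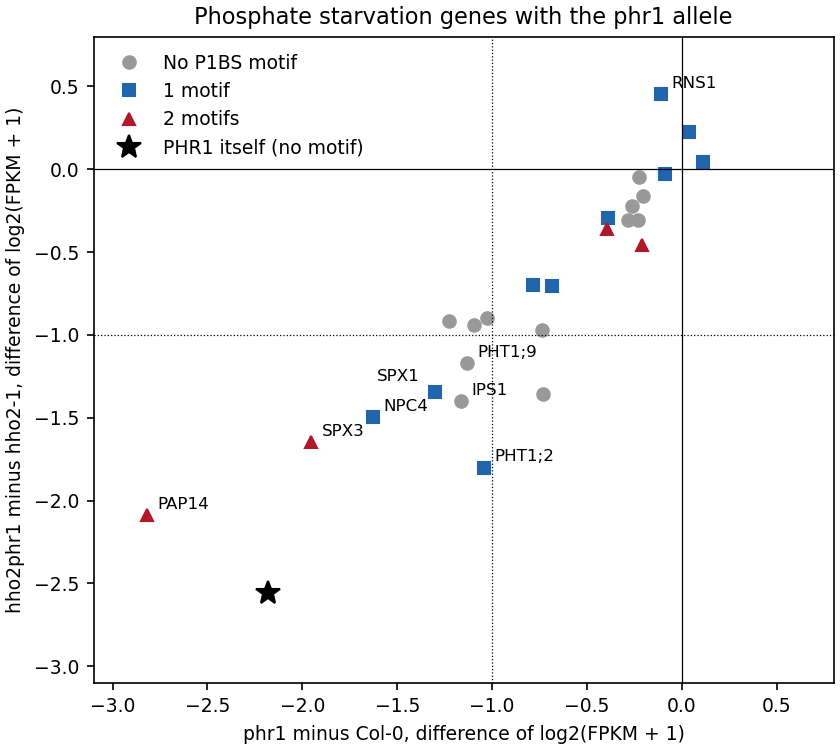
Difference of log2(FPKM + 1) of 26 phosphate starvation genes with the phr1 allele in the HHO2 background (horizontal axis, phr1 minus Col-0) and in the hho2-1 background (vertical axis, hho2phr1 minus hho2-1). Marker shapes give the number of P1BS motifs in the promoter, dotted lines mark 2-fold lower, and the star is PHR1, at -2.18 and -2.56.

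The genes most like PHR1 across the 4 libraries were found by the Euclidean distance between centred log2(FPKM + 1) values, over 19514 other genes with at least 1 FPKM in every library. With 4 points this is a description only. The nearest was AT5G17340, at a distance of 0.26, with 25.7 FPKM in Col-0, 22.7 in hho2-1, 4.25 in phr1 and 3.57 in hho2phr1. It was the 1 gene within a distance of 0.3. BAT1 (AT4G31910), an acyltransferase gene linked to brassinosteroid inactivation, followed at 0.53, with 95.5, 81.3, 12.9 and 17.5 FPKM. SPX3 was the third, at 0.67. Many genes were about as level as the PHL genes: among 11792 with at least 10 FPKM in every library, 8422 lay within 0.3 of PHL1, 8778 of PHL2 and 7695 of PHL3. The nearest to PHL1 was AT3G01920, at a distance of 0.01, followed by AT2G35360 and AT4G37020. The nearest to PHL2 were AT1G56220, AT3G08620 and AT1G16840. The nearest to PHL3 were the transcription factor gene WRKY25, AT1G18470 and the methionine sulfoxide reductase gene MSRB5.

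The P1BS element allowed the promoters to be read beside the levels. The motif searched was GNATATNC, which is its own reverse complement and so reads alike on both strands. The window ran from 250 bases before to 50 bases after the RefSeq gene start, 300 bases in all. Of 27972 nuclear promoters, 6.22% held the motif, and 87 held it at least 2 times. None of the 4 members held it, nor did any of the 10 MYB-CC relatives. The window decides this: in the 1000 bases before the start, a window added after seeing the data, 6 of 10 relatives and 1 of 4 members (PHL1) held it, beside 20.1% of all promoters. Among the list of genes downstream of PHR1, 14 of 27 (51.9%) did, of the regulators 3 of 8, and of the HRS1 and HHO genes 3 of 7. SPX1 and SPX3 are counted in both the downstream list and the regulators. The element was first described in genes of this kind, so the share in the downstream list is not independent of the list.

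The contrast is shown by the 250 bases before the start of PHR1, which lacks the motif (chr4:14135293-14135542, minus strand), and of SPX3, whose level moved with PHR1 and which holds it 2 times (chr2:18606160-18606409, plus strand). Both are written 5′ to 3′ from RefSeq, build TAIR10.1, with the motif in capitals.
PHR1: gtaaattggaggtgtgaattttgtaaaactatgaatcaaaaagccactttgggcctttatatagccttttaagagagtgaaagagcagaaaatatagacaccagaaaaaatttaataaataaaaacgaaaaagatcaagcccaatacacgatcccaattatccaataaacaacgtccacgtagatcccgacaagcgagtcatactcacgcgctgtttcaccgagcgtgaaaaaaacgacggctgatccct
SPX3: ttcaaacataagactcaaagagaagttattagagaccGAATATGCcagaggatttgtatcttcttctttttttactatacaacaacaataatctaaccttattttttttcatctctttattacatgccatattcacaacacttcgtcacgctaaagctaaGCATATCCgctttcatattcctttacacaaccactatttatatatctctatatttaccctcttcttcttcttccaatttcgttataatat

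Among the 7 genes lower in both backgrounds, 5 held the motif and IPS1 and PHT1;9 did not. Stretches of 30 bases around each of these sites are shown, 5′ to 3′ on the strand of the gene with the motif in capitals, because these listed genes were 2-fold lower in both backgrounds. The sites of PAP14 begin 141 and 104 bases before the start (chr2:19266579-19266608 and chr2:19266542-19266571, minus strand), and those of SPX3 begin 213 and 90 bases before it (chr2:18606186-18606215 and chr2:18606309-18606338, plus strand). The site of NPC4 begins 219 bases before the start (chr3:845297-845326, minus strand) and that of PHT1;2 42 bases before it (chr5:17415645-17415674, plus strand). The site of SPX1 begins at base 23 of the transcript (chr5:6802293-6802322, plus strand).
PAP14, first site: acaaatcaaaaGCATATGCcaaaatggtta
PAP14, second site: ataaaattgtaGAATATACcattagaataa
SPX3, first site: tattagagaccGAATATGCcagaggatttg
SPX3, second site: gctaaagctaaGCATATCCgctttcatatt
NPC4: cttgaaaaagtGAATATTCttgacacagac
PHT1;2: aatataaatatGGATATACccttaagattc
SPX1: cagagaaaaaaGGATATTCtaattagaaac

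Over all genes, the share that was 2-fold lower with the phr1 allele was higher in the classes with more motifs. For phr1 against Col-0 it was 0.441% of 18816 genes with no motif, 1.80% of 1222 with 1 motif, and 4.35% of 69 with at least 2, which is 3 genes. In hho2phr1 against hho2-1 it was 0.597%, 1.39% and 8.57% in the same order, the last being 6 of 70 genes. In hho2-1 against Col-0 the shares were 0.361%, 0.493% and 0 of 69, and in hho2phr1 against phr1 0.403%, 0.494% and 2.90%, which is 2 of 69. Over all genes tested, 0.462% and 0.472% were 2-fold lower in these 2 comparisons. Genes are not replicates, so these shares carry no p-value. The classes also include the downstream list, with SPX3 and PAP14 among both the 3 and the 6 genes. The shares are therefore not independent of that list. Genes with at least 2 motifs were also 2-fold higher more often in hho2phr1 against hho2-1, at 2 of 70 (2.86%) beside 1.13% of genes with none, and 0 of 69 were in phr1 against Col-0, beside 0.717%. The median difference was -0.07 for genes with at least 2 motifs in phr1 against Col-0 and -0.03 in hho2phr1 against hho2-1. Among 31 genes that were 2-fold lower in both backgrounds, 13 (41.9%) held the motif, beside 6.42% of the 19930 genes tested. The listed genes SPX1, SPX3, PAP14, NPC4 and PHT1;2 are among those 13.

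Within the downstream list, genes with and without the motif were both among those 2-fold lower. For phr1 against Col-0, 5 of 14 genes with the motif were 2-fold lower, with a median of -0.54, and 5 of 12 without it, with a median of -0.73. In hho2phr1 against hho2-1 the counts were 5 of 14 and 3 of 12, with medians of -0.58 and -0.91. Sites outside the window were not counted, and in the 1000 bases before the start IPS1 held 2.

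**Figure D5:**
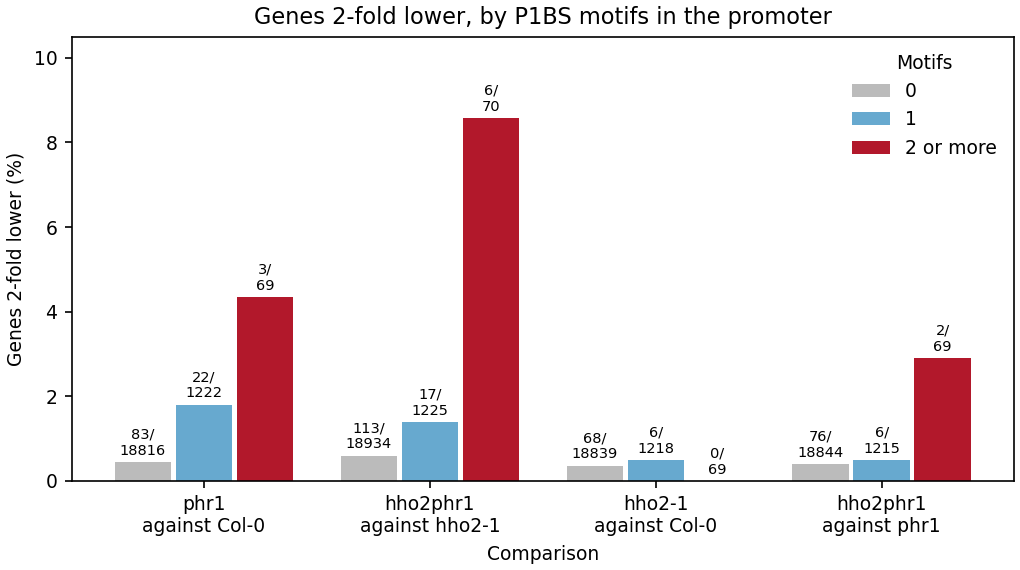
Percent of genes 2-fold lower (vertical axis, from 0) by number of P1BS motifs in the 300-base promoter window, in 4 comparisons, with the genes lower and the genes in each class above each bar. With the phr1 allele the bars rise from 0.441% to 4.35% in phr1 against Col-0 and from 0.597% to 8.57% in hho2phr1 against hho2-1, the tallest resting on 3 and 6 genes. SPX3 and PAP14 of the downstream list are among both.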

How the data were processed

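RNA was sequenced in 1 library for each of 4 genotypes, prepared with Script Seq, per the labels' protocols. The tools named are TopHat2 2.0.11, an aligner, and Cuffdiff 2.2.1, which estimates FPKM, with the build TAIR10, per the submitters' processing notes. Library type, read length, annotation release and scaling are not given in the sources used here. The deposited values are FPKM with lower and upper bounds, per the file headers, which Cuffdiff gives as a 95% interval. The columns WT and dbl were matched to Col-0 and hho2phr1 by name. The status was OK for the 4 members, and 8 other genes had FAIL in a library.

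From these, differences of log2(FPKM + 1) were computed in Python 3.11.15 with pandas 2.3.3 for genes with at least 1 FPKM in either library. Shares of genes past 2-fold serve as background, with no p-value. The calls and motif search were tested on simulated data. Names and promoters came from RefSeq TAIR10.1, which matched 32810 of 33557 genes. All 27973 nuclear genes compared overlapped their deposited interval, on the same chromosome. Depth was read from low values of genes with 1 transcript. It is approximate, since annotated lengths exceed the effective ones and each library was taken as scaled to its own mapped fragments. The 4 members and 4 other lists were chosen with earlier results of these data known. Genes of the lists were named where they were 2-fold lower with intervals apart in both phr1 comparisons, at most 8, beside the MYB-CC relatives and PHR1 regulators with the highest level or largest difference. For each member the 3 most alike genes were named. APL, HHO1, HHO2, HHO3, SIZ1, VIH1, NPC5, AT4, PHT1;4 and RNS1 were named after their values were seen. Alternatives changed the pseudocount, the minimum FPKM, the scaling, the call and the promoter window.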

Additional observations from a re-analysis of the deposited data

Results flagged for a closer look

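For the members, an allele's effect had opposite directions in the 2 backgrounds in 6 cases, each resting on 1 library per genotype, and the difference between the backgrounds was not tested. For PHR1 the hho2 effect in the phr1 background minus that in the PHR1 background was -0.38. For PHL1 this difference for the hho2 allele was -0.15, and after rescaling to equal sums both of its hho2 differences were above 0 (0.20 and 0.02), so that the directions were no longer opposite. The same rescaling made the PHL1 phr1 differences opposite, at 0.08 in phr1 against Col-0 and -0.10 in hho2phr1 against hho2-1. Rescaling to a median log2 ratio of 0 did so too (0.165 and -0.004). Which cases count as opposite thus depends on the scaling. For PHL2 the difference between the backgrounds was 0.16 for both the phr1 and the hho2 allele, since in a design of 4 libraries both are the same sum. For PHL3 it was 0.32 for both alleles. The intervals of the libraries compared overlapped in all 6 cases.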

How the results depend on the processing

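No paired analysis was possible because each genotype had 1 library and no difference has a test. No replicate could be left out for the same reason. The 60 alternative values of the member differences moved by at most 0.15, and the same 3 differences, all of PHR1, were 2-fold under every setting. The sign of 2 PHL1 differences near 0 changed with the scaling. Background counts depended on the setting. With a pseudocount of 0.1, 183, 306 and 215 genes were 2-fold lower in phr1 against Col-0, hho2phr1 against hho2-1 and hho2phr1 against Col-0, in place of 117, 147 and 132. With a minimum of 5 FPKM the counts were 64, 85 and 84, and with intervals apart 44, 71 and 61. For the hho2 allele, 2-fold genes in either direction numbered 179 in hho2-1 against Col-0 and 225 in hho2phr1 against phr1. They became 292 and 365 with a pseudocount of 0.1, 91 and 128 with a minimum of 5 FPKM, and 35 and 78 with intervals apart. Rescaling to the median log2 ratio divided hho2-1 by 0.987, phr1 by 0.997 and hho2phr1 by 0.998. Within the FPKM sums, AT1G07600 alone made up 13.1% in Col-0, 11.2% in hho2-1, 17.2% in phr1 and 13.6% in hho2phr1. The part of AT1G07600 in the sum scaling was not tested. Rescaling to equal sums shifts all genes together, by -0.08 at the median in phr1 against Col-0 and by 0.08 in hho2-1 against Col-0. The share of all genes below 0 then went from 50.5% to 68.8% and from 49.7% to 32.4%. With that shift 8 of 8 regulators in place of 5 were below 0 in the first comparison, so that count moves with the scaling. In the second, 0 of 10 MYB-CC relatives in place of 1 were below 0. The counts of 1 and 0 of 10 are under the shares of all genes at the same scaling, 49.7% and 32.4%. The count of 8 of 8 is above its share of 68.8%. These departures were not tested. With the 250 bases before the start alone, 9 of 27 downstream genes held the P1BS motif. With 1000 bases, a window added after seeing the data, 5626 promoters held it, 1 member among them (PHL1). The shares 2-fold lower were then 0.955% with 1 motif and 2.38% with at least 2 in phr1 against Col-0, and 0.811% and 2.36% in hho2phr1 against hho2-1. The cause of these moves was not tested.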
